A study of Mus musculus with 8 samples.

Results

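The genes described here encode 43 receptors through which monoamines, acetylcholine, histamine, adenosine, endocannabinoids, opioid peptides and other neuropeptides act on cortical neurons. They were chosen by name, and all 43 were found among the 53379 genes counted. They comprise 9 serotonin, 6 noradrenaline, 2 dopamine, 3 histamine, 4 muscarinic and 3 nicotinic acetylcholine, 4 opioid, 2 cannabinoid and adenosine, 4 somatostatin, 3 neuropeptide Y and 3 other peptide receptor genes. RNA sequencing was carried out on the cingulate cortex of untreated male mice on a C57BL/6 background, 4 wild-type (WT) and 4 homozygous for an Mvp knockout allele (Mvp-/-, labelled Mvp KO). Mvp encodes the major vault protein, the main component of the vault ribonucleoprotein particle. The allele carries a β-geo gene-trap cassette inserted in the first intron and descends from 1 gene-trapped embryonic stem cell clone, so the cassette is present in every cell of the body and no cell type was targeted. The age of the animals used for sequencing, and whether each sample was 1 animal or a pool, are not given in the sources used here. The p-values below therefore measure the spread between these samples.

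Most of these receptors are G protein-coupled: those that engage Gi lower cyclic AMP and open inward-rectifier potassium channels, those that engage Gs raise cyclic AMP, and those that engage Gq activate phospholipase C and release intracellular calcium. The nicotinic receptors are instead cation channels opened directly by acetylcholine. In cingulate cortex the transmitters that act on them come mainly from long axons of the brainstem and basal forebrain for monoamines and acetylcholine, and from local interneurons for somatostatin and neuropeptide Y.

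Libraries held 28456504 to 42854368 counts. Mvp was 6.81, 7.12, 7.89 and 5.49 CPM in WT replicates 1 to 4 and 1.45, 1.44, 2.13 and 1.51 CPM in Mvp KO replicates 1 to 4, with a log2 fold change of Mvp KO over WT of -2.06 ± 0.19 (SE) and an adjusted p = 0.0162 in edgeR, or -2.15 ± 0.17 and an adjusted p = 0.00446 without WT replicate 4. All 4 Mvp KO samples lay below all 4 WT samples (two-sided exact permutation test over the 70 arrangements, p = 0.0286, the smallest this design allows). Leaving out 1 of WT replicates 1, 2 and 3 or Mvp KO replicates 1, 2 and 4 moved the adjusted p of Mvp to between 0.0918 and 0.147 in edgeR. WT replicate 4 stood apart from the other 7 samples. It lay at 71.5 on a first principal component that held 46.0% of the variance, against -20.4 to -2.78 for the others. In it 1548 genes were at least 2-fold from their median over the other 7 samples. The same count was 87 to 435 for each of the others. Cortical neuron markers were abundant, with Slc17a7, the vesicular glutamate transporter of cortical pyramidal cells, at 1335 to 1678 CPM outside WT replicate 4. Of 10 brainstem and basal forebrain markers, Slc6a3, Slc6a4 and Slc6a2, the dopamine, serotonin and noradrenaline transporters, did not exceed 0.265 CPM in any sample. The rest of these markers were not all so low. Counts per library were 112 to 250 for Ddc, 38 to 198 for Th and 9 to 51 for Tph2. They were 7 to 26 for Slc18a2, 2 to 16 for Slc18a3, 7 to 13 for Chat and 2 to 11 for Dbh. Because of WT replicate 4, the log2 fold changes of single receptors are given with and without that sample.

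Receptor levels were compared between genes as CPM (counts per 1000000 library counts, with libraries scaled by the TMM method) per kilobase of exon, and are given as the mean ± SD of the 4 WT samples. They spanned from 62.7 ± 28.6 for Cnr1 to 0.0168 ± 0.00556 for Oprm1. Of the 43 genes, 12 exceeded 10 CPM per kilobase and 7 were under 1. The length covers all annotated exons of a gene, which can far exceed its longest coding transcript. For Oprm1 it was 8037 bases against 2420, and for Galr1 2987 by both measures. Mean WT CPM was 0.135 for Oprm1 and 0.103 for Galr1, so the last place of Oprm1 rests on the length used. Both counts depend on it too: Oprk1, for example, had 9151 bases against 4675. The 10 highest genes were the same with either length. The median receptor gene was at 5.21, against 4.03 over all 16914 genes tested, and 22 of the 43 lay above the latter.

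The 4 highest levels belonged to Cnr1 (62.7 ± 28.6), the presynaptic cannabinoid receptor CB1, Adora1 (46.8 ± 17.5), the inhibitory adenosine A1 receptor, Hrh3 (31.5 ± 8.1), the histamine autoreceptor and heteroreceptor, and Chrm1 (25.1 ± 1.93), the principal muscarinic receptor of cortical pyramidal cells. These 4 also ranked 1 to 4 in the Mvp KO group and in the WT group without replicate 4. After them came Adra1d (17.7 ± 9.96), Oprl1 (16.1 ± 4.78), Chrm4 (15.2 ± 2.74), Htr2a (14.4 ± 7.07), Sstr2 (13.7 ± 2.31), Chrm3 (13.3 ± 2.28), Crhr1 (10.3 ± 3.45) and Npy1r (10.003 ± 4.13). The order among these 8 was not resolved: Adra1d fell from rank 5 to rank 8, and Htr2a from rank 8 to rank 12, when WT replicate 4 was left out.

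In the middle of the order lay Adra1b (9.66 ± 5.48), Sstr3 (8.45 ± 1.67), Sstr1 (8.04 ± 1.22), Chrnb2 (7.73 ± 0.34), Adrb1 (7.54 ± 2.99), Hrh1 (7.51 ± 1.25), Chrna4 (6.07 ± 2.16), Oprd1 (5.83 ± 1.68), Htr5a (5.5 ± 0.358) and Sstr4 (5.21 ± 0.655). Below 5 CPM per kilobase came Htr1b (3.92 ± 1.74), Hrh2 (3.81 ± 1.32), Htr1a (3.51 ± 0.375), Htr2c (3.39 ± 1.06), Chrm2 (3.17 ± 0.316), Npy5r (2.86 ± 0.471), Htr7 (2.78 ± 1.54), Chrna7 (2.28 ± 0.259) and Adra2c (2.04 ± 0.452). The lowest levels were those of Htr6 (1.75 ± 0.485), Npy2r (1.67 ± 1.07), Oxtr (1.64 ± 0.659), Drd5 (1.05 ± 0.306), Adra2a (1.03 ± 0.352), Oprk1 (0.882 ± 0.601), Drd4 (0.873 ± 1.47), Htr1f (0.578 ± 0.272), Adra1a (0.561 ± 0.0576), Htr4 (0.516 ± 0.267), Galr1 (0.0344 ± 0.022) and Oprm1. Of the 42 pairs of neighbours in this order, only 3 kept the same order in all 8 samples: Cnr1 above Adora1, Adora1 above Hrh3, and Htr4 above Galr1. A rank is therefore a position within a band rather than a measured place, and it also depends on the length used.

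**Figure D1:**
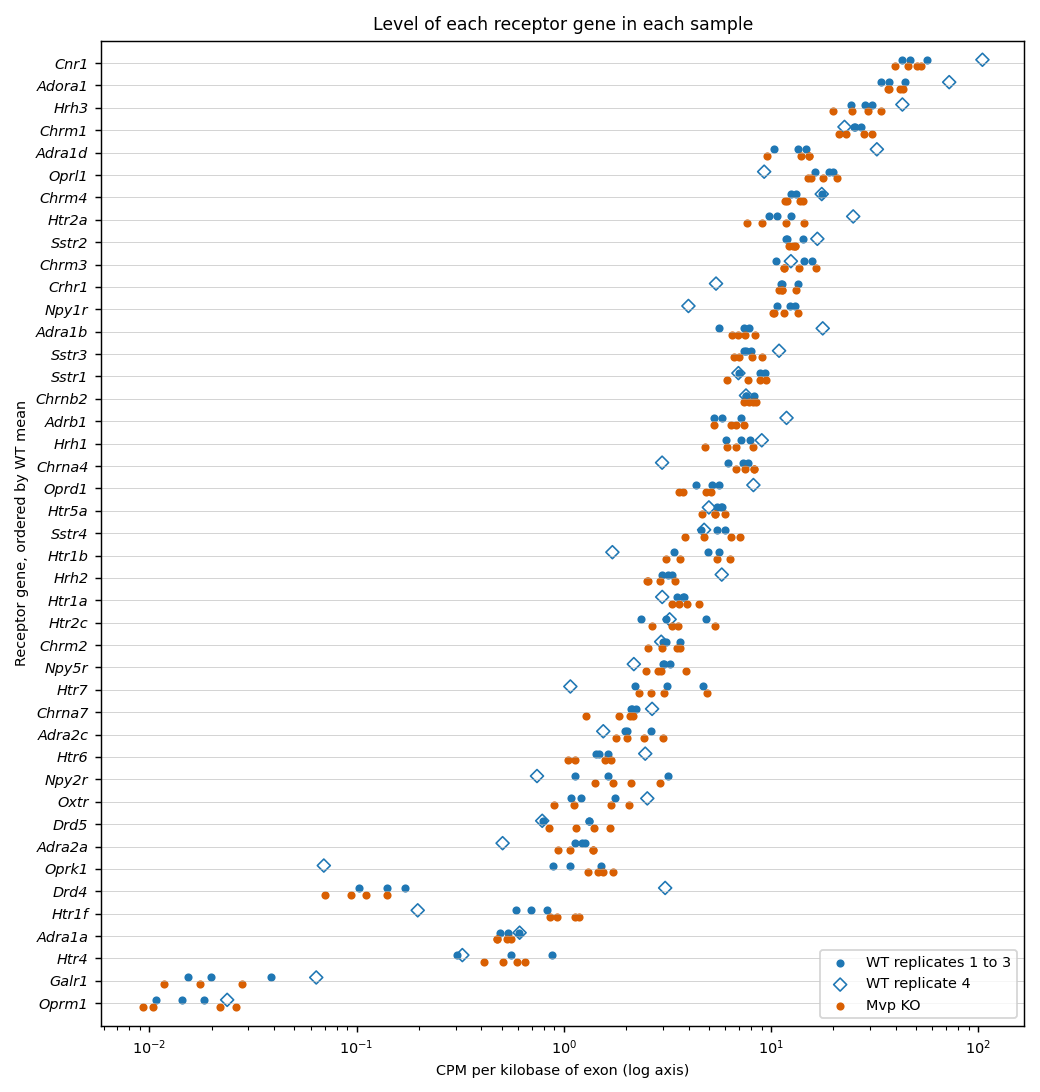
Level of each of the 43 receptor genes in each sample, as CPM per kilobase of exon on a log axis, ordered by the mean of the 4 WT samples. WT replicates 1 to 3 are filled blue circles, WT replicate 4 an open diamond and Mvp KO samples orange circles. Galr1 had 0 counts in Mvp KO replicate 1, which has no place on a log axis and is not drawn. Blue and orange circles overlie each other in nearly every line, and the diamond lies away from them for Drd4, Oprk1 and many others.

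Grouped by coupling, the 24 Gi-coupled receptors made up 64.5% of the summed WT level, the 9 Gq-coupled receptors 24.1%, the 7 Gs-coupled receptors 7.18% and the 3 nicotinic subunits 4.16%. In the Mvp KO group the same shares were 63.5%, 23.7%, 7.84% and 5.00%, and in WT without replicate 4 they were 64.0%, 23.3%, 7.85% and 4.82%. The summed Gi-coupled level was 238, 212, 229 and 319 CPM per kilobase in WT and 206, 199, 236 and 247 in Mvp KO replicates 1 to 4, so WT replicate 4 was the highest and the other samples overlapped. By transmitter, the cannabinoid and adenosine pair alone held 28.3% of the WT sum, followed by the muscarinic receptors with 14.7%, the histamine receptors with 11.1%, the noradrenaline receptors with 9.96%, the serotonin receptors with 9.40% and the somatostatin receptors with 9.15%. The order of the last 3 rested on WT replicate 4: without it the serotonin, somatostatin and noradrenaline receptors held 9.76%, 9.63% and 8.43% of the WT sum, and in Mvp KO 9.85%, 9.71% and 8.96%. The 2 dopamine receptors among the 43, Drd4 and Drd5, held 0.498%, or 0.361% without WT replicate 4, a share that covers no other dopamine receptor gene.

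Of the 43 genes, 41 had enough counts to be tested. In edgeR's quasi-likelihood fit, with p-values adjusted after Benjamini and Hochberg over all 16914 genes, 0 of the 41 passed an adjusted p of 0.05. The adjusted p was 0.969 for each receptor given with all its values below, except Oprl1 (0.970) and Chrm1 (0.980), and it rounded to 1 for all of them without WT replicate 4. Over all genes 0.00591% passed, which was Mvp alone. At an unadjusted p under 0.05 there were 2 receptors, Drd4 lower and Htr1f higher in Mvp KO, against 1.56% of all genes tested. DESeq2, which gave Drd4 no p, and limma also called 0 of them, with 2 (Htr1f and Oprd1) and 0 at an unadjusted p under 0.05, against 1.17% and 3.28% of all genes in those fits. Of the 41 receptors, 21 were higher and 20 lower in Mvp KO, with a median log2 fold change of 0.00026 against -2.1e-06 over all genes. Without WT replicate 4, 17 were higher and 24 lower, with a median of -0.024 against 0.0033. Because the tissue was sequenced in bulk, fewer cells bearing a receptor and less receptor RNA per cell cannot be told apart in any value given here.

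The width of the intervals changed with WT replicate 4. With all 8 samples, the 95% limits of the fold change were both inside 1.5-fold for 13 of the 41 receptors (31.7%, against 64.5% of all genes) and inside 2-fold for 31. Without WT replicate 4 they were for 29 of 41 (70.7%, against 71.4% of all genes) and inside 2-fold for 40, the exception being Drd4. The median absolute log2 fold change of the receptors was 0.21 with all samples and 0.072 without WT replicate 4, against 0.097 and 0.061 for all genes. Without it 0 of 41 receptors passed the adjusted threshold in edgeR, as against 0.00583% of all genes, and 1, Htr1f, had an unadjusted p under 0.05, against 1.34%.

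**Figure D2:**
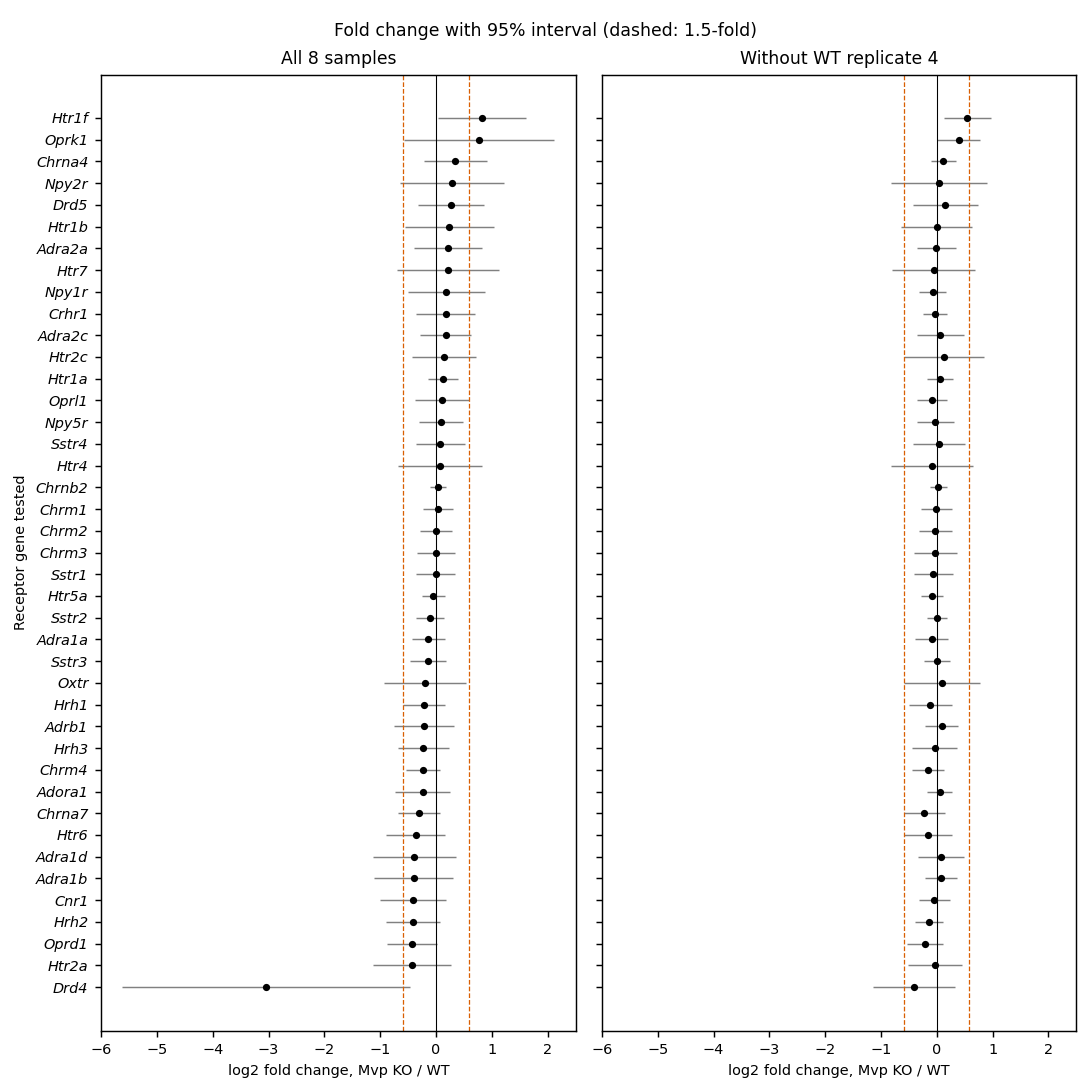
Log2 fold change of Mvp KO over WT for the 41 receptor genes tested, with the 95% interval from edgeR, from all 8 samples (left) and without WT replicate 4 (right). Dashed lines mark 1.5-fold. The intervals of 13 genes lie between the dashed lines on the left and those of 29 on the right.

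WT replicate 4 was the highest of the 8 samples for 17 of the 41 receptors and the lowest for 14, so that 75.6% had their extreme there, against 61.7% of all genes tested. It lay at least 1.5-fold above every other sample for 8 receptors (Cnr1, Adora1, Adra1d, Htr2a, Adra1b, Adrb1, Hrh2 and Drd4), which is 19.5% of the 41 against 5.14% of all genes. It lay at least 1.5-fold below every other sample for 10 (Oprl1, Crhr1, Npy1r, Chrna4, Htr1b, Htr7, Npy2r, Adra2a, Oprk1 and Htr1f), which is 24.4% against 6.13%. None of the other 7 samples lay 1.5-fold above or below all the rest for any of the 41. Galr1, which was not tested, was also highest in WT replicate 4, with 6 counts there.

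Other transcripts moved in the same sample. Among 10 immediate early genes, WT replicate 4 was the highest sample for 9, and their summed level there was 702 CPM per kilobase against 169 to 467 in the others. The sum was 169 to 356 in WT replicates 1 to 3 and 229 to 467 in Mvp KO. The median log2 fold change of these 10 was 0.063, or 0.58 without WT replicate 4. In edgeR 0 had an unadjusted p under 0.05 with all samples, and 1 without WT replicate 4, against 1.34% of all genes. Of 8 cortical neuron markers 6 were highest and 2 lowest there (sum 1947, against 1469 to 1732), and 3 lay at least 1.5-fold above every other sample. Among the highest, Gad2, an enzyme of GABA synthesis in interneurons, was at 545 CPM against 154 to 205 CPM. Slc17a7, the pyramidal cell marker, was also highest there, with 86022 counts, the most of any library. Of 9 striatal markers tested 5 were highest and 2 lowest there, 1 of the latter at least 1.5-fold below every other sample (sum 86.3, against 56.8 to 63.3). Of the 4 brainstem and basal forebrain markers tested 3 were highest (sum over 10 genes 4.56, against 1.94 to 2.60, with Slc6a4 at 0 counts). Of 6 oligodendrocyte markers 5 were lowest there, with a sum of 197 against 226 to 853, and the sum ran from 226 to 853 in Mvp KO against 197 to 421 in WT. Their median log2 fold change was 0.67, or 0.52 without WT replicate 4, with positive values for all 6, of which 0 passed the adjusted threshold and 0 had an unadjusted p under 0.05 in edgeR, DESeq2 or limma. Astrocyte sums were 146 in WT replicate 4 and 141 to 163 elsewhere, microglial sums 90.7 and 85.4 to 101, endothelial sums 31.6 and 28.6 to 47.6, and choroid plexus sums 1.75 and 1.39 to 4.61. Lower in Mvp KO were 4 of 5 astrocyte, 5 of 5 microglial, 4 of 5 endothelial and 2 of 4 choroid plexus markers tested. None passed the adjusted threshold. At an unadjusted p under 0.05 there was 1 astrocyte marker in edgeR without WT replicate 4 (all genes 1.34%). With limma there were 2 astrocyte markers and 1 endothelial marker (all genes 3.28%). The part of any of these in the receptor values was not tested.

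**Figure D3:**
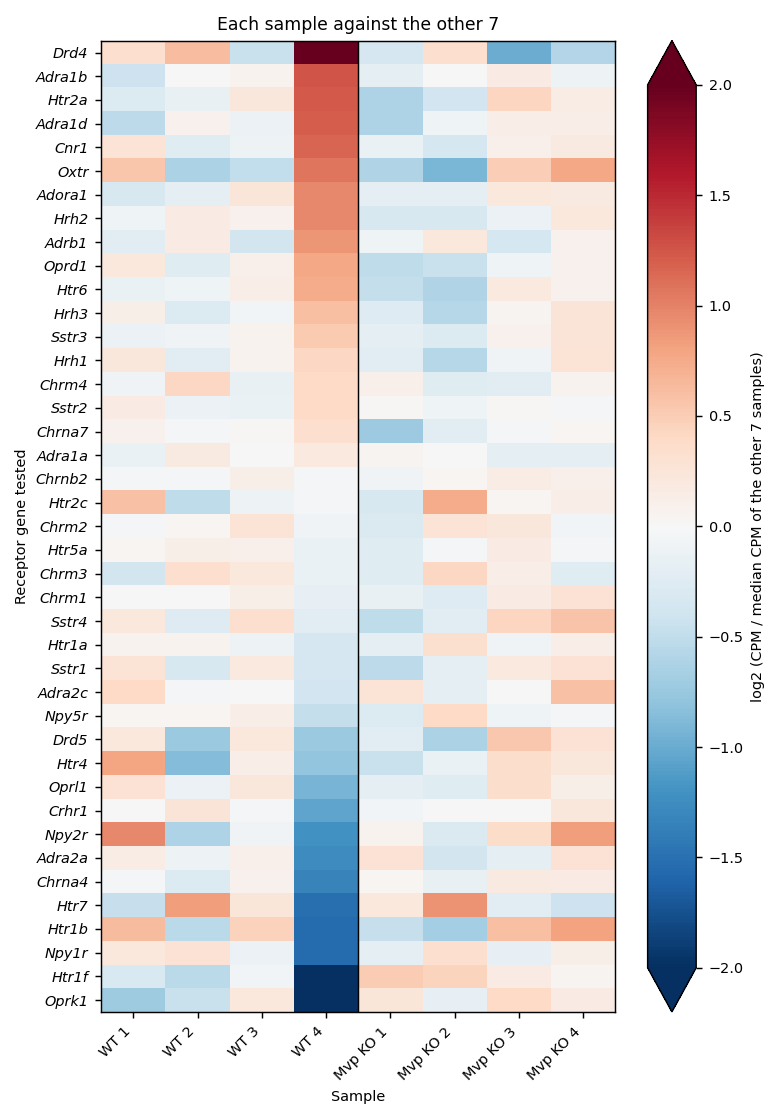
Each of the 41 receptor genes tested (rows) in each sample (columns), as the log2 ratio of its CPM to the median CPM of the other 7 samples, ordered by that ratio in WT replicate 4. Red is higher and blue lower, and colours saturate at 2 in either direction. The WT replicate 4 column runs from deep red (Drd4, 27.8-fold above the median of the others) to deep blue (Oprk1, 21-fold below), while the other 7 columns are paler.

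Dopamine acts on the prefrontal and cingulate cortex through D1-like and D2-like receptors. Drd1, the main D1-like receptor and not one of the 43, was at 5.10 ± 1.63 CPM per kilobase in WT, above both dopamine receptors described here. Drd4, the Gi-coupled D4 receptor, was 0.472, 0.576, 0.346 and 10.4 CPM in WT replicates 1 to 4 and 0.374, 0.472, 0.237 and 0.316 CPM in Mvp KO replicates 1 to 4. The 328 counts in WT replicate 4 compare with 9 to 25 in each of the others, and those 7 samples overlapped between genotypes. The log2 fold change was -3.05 ± 1.15 (SE) with all samples and -0.41 ± 0.33 without WT replicate 4, so the unadjusted p under 0.05 rested on that sample. Drd5, the Gs-coupled D5 receptor, ranged from 2.48 to 5.23 CPM with overlapping groups, and 48.6% of its exon length is shared with a gene on the opposite strand, whose reads can be told apart only if strand was used in counting, which is not stated.

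The bases before a RefSeq start site of Drd4 are shown because it had the largest single-sample departure. Those of Htr1f and Cnr1 are shown with them, as the receptor whose genotypes did not overlap and the receptor with the highest level. Each is the 250 bases upstream of a RefSeq start site in GRCm38.p6, written 5′ to 3′ on the gene's strand, and for Cnr1, which has 3 such sites, the first whose transcribed bases occur in a GENCODE transcript. The GENCODE genes begin inside these windows, at 141292006 for Drd4, 65105854 for Htr1f and 33924593 for Cnr1. The last bases of each window therefore lie within the annotated gene. Capitals mark GC boxes (GGGCGG on either strand), of which Drd4 had 3 and the other windows shown 0. At least 1 window of Cnr1 that is not shown held a GC box.
Drd4, chr7:141291768-141292017, plus strand: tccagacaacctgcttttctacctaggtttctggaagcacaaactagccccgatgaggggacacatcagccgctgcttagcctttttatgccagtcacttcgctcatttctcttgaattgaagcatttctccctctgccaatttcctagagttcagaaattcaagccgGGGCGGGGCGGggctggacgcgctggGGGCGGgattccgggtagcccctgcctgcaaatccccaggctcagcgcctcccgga
Htr1f, chr16:65105785-65106034, minus strand: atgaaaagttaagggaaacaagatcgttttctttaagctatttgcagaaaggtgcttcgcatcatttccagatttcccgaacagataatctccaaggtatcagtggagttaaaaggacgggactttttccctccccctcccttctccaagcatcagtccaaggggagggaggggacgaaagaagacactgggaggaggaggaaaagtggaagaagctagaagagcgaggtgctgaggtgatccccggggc
Cnr1, chr4:33924394-33924643, plus strand: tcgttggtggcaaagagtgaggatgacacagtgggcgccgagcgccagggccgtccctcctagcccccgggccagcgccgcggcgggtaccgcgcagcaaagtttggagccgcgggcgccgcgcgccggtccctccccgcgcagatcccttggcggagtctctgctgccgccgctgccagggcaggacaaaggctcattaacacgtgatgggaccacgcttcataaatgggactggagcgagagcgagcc
Their GC contents were 56.8%, 49.2% and 68.8%. None of these windows held the cAMP response element TGACGTCA, the AP-1 site TGANTCA or the EGR site GCGTGGGCG on either strand, which says only that these letters are not in these bases. Start sites were given for 36 of the 43 receptor genes, and at least 1 window held a GC box in 22 of them, against 35.4% of 27025 genes. The cAMP response element was found in 1 (Sstr2, against 1.77% of genes), the AP-1 site in 5 (Adora1, Adra1b, Hrh1, Htr2c and Npy1r, against 7.82%) and the EGR site in 1 (Htr7, against 0.622%). Of the 18 tested receptors for which WT replicate 4 stood 1.5-fold apart, 16 had a window, and 0, 3 and 1 of these held the cAMP response element, the AP-1 site and the EGR site.

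Noradrenaline, released from locus coeruleus axons, acts on Gq-coupled alpha-1, Gi-coupled alpha-2 and Gs-coupled beta receptors. Adra1d, an alpha-1 receptor, was 19.5, 27.9, 25.6 and 61.5 CPM in WT replicates 1 to 4 and 18.1, 26.4, 29 and 28.9 CPM in Mvp KO replicates 1 to 4. Adra1b, the related alpha-1B receptor, was 19, 25.1, 26.5 and 60.01 CPM in WT replicates 1 to 4 and 22, 25.2, 28.2 and 23.4 CPM in Mvp KO replicates 1 to 4. Both showed 1 high WT sample above 7 samples in which the genotypes overlapped. Their log2 fold changes were -0.39 ± 0.33 (SE) and -0.40 ± 0.31 (SE) with all samples, and turned to 0.073 ± 0.18 and 0.072 ± 0.13 without WT replicate 4.

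Adrb1, the beta-1 receptor, followed the same pattern at 19.7, 24.3, 17.9 and 40.1 CPM in WT replicates 1 to 4 and 21.7, 25, 18 and 23 CPM in Mvp KO replicates 1 to 4. Its log2 fold change went from -0.22 ± 0.24 (SE) to 0.088 ± 0.13 when WT replicate 4 was left out. Adra2a, the alpha-2A receptor found both on noradrenaline axons and on cortical neurons, went the other way at 6.07, 5.46, 5.88 and 2.44 CPM in WT replicates 1 to 4 and 6.66, 4.55, 5.16 and 6.7 CPM in Mvp KO replicates 1 to 4. Its lowest sample was WT replicate 4 and the other 7 overlapped, with log2 fold changes of 0.21 ± 0.27 (SE) and, without that sample, -0.0065 ± 0.16. Adra2c, a second alpha-2 receptor, ranged from 5.33 to 10.4 CPM, and Adra1a, at 4.13 to 5.33 CPM, varied least of the 6. The summed noradrenaline receptor level was 64.7 CPM per kilobase in WT replicate 4 and 26.1 to 33.8 in the others.

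Serotonin receptors comprised 9 genes, coupled to Gi, Gq or Gs. Htr2a, the Gq-coupled 5-HT2A receptor of pyramidal cells, was the most abundant at 54.5, 59.6, 69.9 and 139.5 CPM in WT replicates 1 to 4 and 43, 50.8, 80.5 and 66 CPM in Mvp KO replicates 1 to 4. Again WT replicate 4 was above the rest and the other 7 overlapped, with a log2 fold change of -0.43 ± 0.31 (SE), and of -0.028 ± 0.21 without it. Htr5a, a Gi-coupled receptor, varied between 24.9 and 32.1 CPM, and its fold change had a 95% interval of 0.84 to 1.11, or 0.823 to 1.08 without WT replicate 4.

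Htr1f, the Gi-coupled 5-HT1F receptor, was 1.8, 1.52, 2.13 and 0.508 CPM in WT replicates 1 to 4 and 3.04, 2.91, 2.39 and 2.21 CPM in Mvp KO replicates 1 to 4. It was the only receptor of the 41 in which all 4 Mvp KO samples lay above all 4 WT samples, where 1.52% of all genes had groups that did not overlap in either direction. The counts behind these values were low, at 16 to 74 per WT library and 63 to 122 per Mvp KO library. The log2 fold change was 0.82 ± 0.35 (SE), and 0.55 ± 0.19 without WT replicate 4, neither past the adjusted threshold. The fold interval was 1.02 to 3.06 with all samples and 1.09 to 1.97 without WT replicate 4.

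Htr1b, the Gi-coupled 5-HT1B receptor, was 26.4, 16.1, 23.5 and 8.1 CPM in WT replicates 1 to 4 and 17.1, 14.7, 25.9 and 29.8 CPM in Mvp KO replicates 1 to 4. Htr7, a Gs-coupled receptor, was 7.52, 16, 10.6 and 3.65 CPM in WT replicates 1 to 4 and 10.4, 16.8, 8.97 and 7.83 CPM in Mvp KO replicates 1 to 4. In both the lowest sample was WT replicate 4 and the remaining 7 were widely spread and overlapped between genotypes. Log2 fold changes were 0.24 ± 0.35 (SE) and 0.21 ± 0.40 (SE) with all samples, and -0.0049 ± 0.28 and -0.053 ± 0.32 without WT replicate 4. Htr1b shares 18.0% of its exon length with a gene on the opposite strand. Of the remaining serotonin receptors, Htr1a ranged from 13.4 to 20.1 CPM, Htr2c from 21.9 to 50.3, Htr6 from 2.44 to 5.78 and Htr4 from 1.497 to 4.31, all with overlapping groups and log2 fold changes from -0.37 (Htr6) to 0.14 (Htr2c), or from -0.15 (Htr6) to 0.13 (Htr2c) without WT replicate 4.

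Histamine receptors were all lower in Mvp KO on average, though none passed the test. Hrh3, the Gi-coupled receptor that restrains histamine and other transmitter release, was 96.7, 76.1, 88.8 and 135 CPM in WT replicates 1 to 4 and 77.3, 62.5, 92.5 and 106 CPM in Mvp KO replicates 1 to 4. Hrh2, the Gs-coupled receptor, was 17.7, 19.7, 18.8 and 34.3 CPM in WT replicates 1 to 4 and 15, 15.1, 17.3 and 20.4 CPM in Mvp KO replicates 1 to 4. WT replicate 4 was the highest sample for both, and without it the groups still overlapped. The log2 fold changes were -0.23 ± 0.20 (SE) and -0.41 ± 0.21 (SE), shrinking to -0.04 ± 0.17 and -0.14 ± 0.11 without that sample. Hrh1, the Gq-coupled receptor, ranged from 21.3 to 40.1 CPM and had a log2 fold change of -0.22 ± 0.17 (SE), or -0.11 ± 0.17 without WT replicate 4. For Hrh3, 11.1% of exon length overlaps a gene on the other strand.

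The 4 muscarinic acetylcholine receptor genes showed no sample set apart. Chrm1, Gq-coupled and the highest of the 4 muscarinic genes, was 165, 164, 177 and 147 CPM in WT replicates 1 to 4 and 148, 138, 183 and 199.98 CPM in Mvp KO replicates 1 to 4. The genotypes overlapped, and the log2 fold change was 0.036 ± 0.12 (SE), or -0.009 ± 0.12 without WT replicate 4, with a fold interval of 0.848 to 1.24. Chrm4, a Gi-coupled muscarinic receptor, was 19.1, 25.4, 18 and 25.3 CPM in WT replicates 1 to 4 and 20.5, 16.8, 17.3 and 19.9 CPM in Mvp KO replicates 1 to 4. It had 2 higher samples, WT replicates 2 and 4, and the groups overlapped, with log2 fold changes of -0.24 ± 0.14 (SE) and, without WT replicate 4, -0.16 ± 0.13. Chrm3 ranged from 66.0 to 103 CPM and Chrm2 from 15.4 to 22.1 CPM, with log2 fold changes of 0.00026 and 0.0017, or -0.027 and -0.028 without WT replicate 4. The summed muscarinic level was 52.3, 61.7, 57.8 and 55.6 CPM per kilobase in WT and 51.1, 53.1, 57.3 and 59.2 in Mvp KO replicates 1 to 4, and WT replicate 4 was neither the highest nor the lowest sample for any of its 4 genes.

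Nicotinic subunits differed among themselves. Chrna4 encodes the alpha-4 subunit, which pairs with beta-2 in the main high-affinity nicotinic receptor of the brain, and was 36.7, 31.2, 39 and 15 CPM in WT replicates 1 to 4 and 37.6, 33.8, 41.7 and 41.4 CPM in Mvp KO replicates 1 to 4. The lowest sample was WT replicate 4, and the other 7 overlapped. Its partner Chrnb2 ranged only from 61.8 to 70.5 CPM, with WT replicate 4 at 63.4. For Chrna4 the log2 fold change was 0.34 ± 0.25 (SE), or 0.12 ± 0.10 without WT replicate 4. For Chrnb2 it was 0.036 ± 0.066 (SE), with the narrowest fold interval of the 41, 0.926 to 1.14, and 0.029 ± 0.066 without WT replicate 4. Chrna7, the subunit of the homomeric calcium-permeable receptor, was 10.03, 9.49, 9.62 and 12 CPM in WT replicates 1 to 4 and 5.79, 8.35, 9.36 and 9.76 CPM in Mvp KO replicates 1 to 4. Mvp KO replicate 1 was lowest and WT replicate 4 highest, the groups overlapped, and the log2 fold change was -0.31 ± 0.17 (SE), or -0.22 ± 0.17 without WT replicate 4. Chrnb2 shares 16.3% of its exon length with a gene on the opposite strand.

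**Figure D4:**
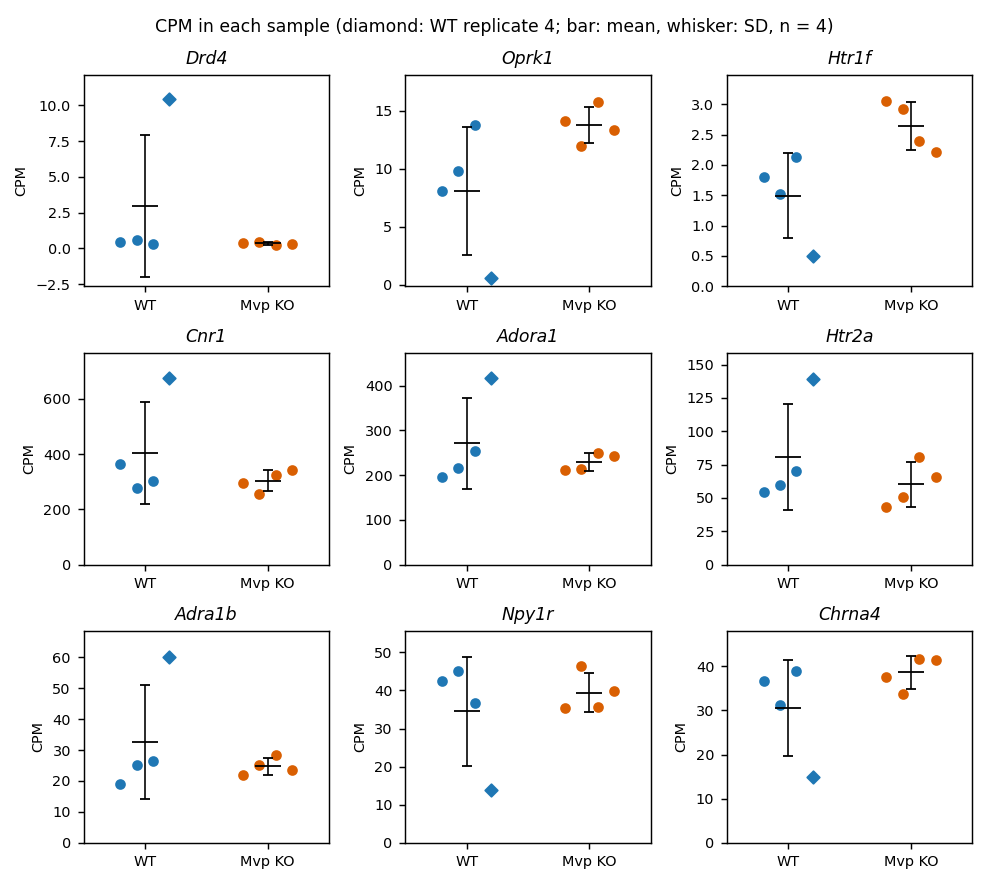
CPM of 9 receptor genes in each sample, from a linear axis that includes 0. Points are samples (WT blue, Mvp KO orange, diamond WT replicate 4), the horizontal bar is the mean and the whisker the SD of 4 samples. The diamond is the outermost point of every panel, above the rest for Drd4, Cnr1, Adora1, Htr2a and Adra1b and below for Oprk1, Htr1f, Npy1r and Chrna4, and it is Htr1f whose genotypes do not overlap.

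The 4 opioid receptor genes were at very different levels. Oprl1, the nociceptin receptor, was by far the most abundant of them at 74.3, 61, 71.1 and 34.7 CPM in WT replicates 1 to 4 and 58.4, 56.4, 78.1 and 66.5 CPM in Mvp KO replicates 1 to 4. The value in WT replicate 4 was 1.91-fold below the median of the rest, the others overlapped, and the log2 fold change was 0.10 ± 0.22 (SE), or -0.081 ± 0.12 without it. Oprd1, the delta receptor, was 22.6, 17.4, 20.7 and 33 CPM in WT replicates 1 to 4 and 14.5, 15.1, 19.4 and 20.7 CPM in Mvp KO replicates 1 to 4. Here WT replicate 4 was highest and Mvp KO replicates 1 and 2 lowest, the groups overlapped, and the log2 fold changes were -0.43 ± 0.20 (SE) with all samples and -0.21 ± 0.14 without WT replicate 4.

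Oprk1, the kappa receptor for dynorphin, was 8.11, 9.79, 13.8 and 0.635 CPM in WT replicates 1 to 4 and 14.1, 12, 15.7 and 13.3 CPM in Mvp KO replicates 1 to 4. WT replicate 4 held 20 counts against 275 to 597 in the other libraries, and the remaining samples overlapped through WT replicate 3. The log2 fold change was 0.77 ± 0.60 (SE), with a fold interval of 0.67 to 4.32. Without WT replicate 4 it was 0.39 ± 0.17, with a fold interval of 0.999 to 1.72. Oprm1, the mu receptor, held 3 to 8 counts per library and 38 in all, too few to be tested, and a difference between genotypes was not detectable at this depth.

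Cannabinoid and adenosine receptors both act on axon terminals to reduce transmitter release. Cnr1 was 364, 275, 302 and 674 CPM in WT replicates 1 to 4 and 294, 254, 324 and 342 CPM in Mvp KO replicates 1 to 4. WT replicate 4 stood above the rest, the other 7 overlapped, and the log2 fold change was -0.41 ± 0.26 (SE). Without that sample it was -0.045 ± 0.12, with a fold interval of 0.802 to 1.17. Adora1 was 196, 215, 255 and 418 CPM in WT replicates 1 to 4 and 212, 213, 249 and 243 CPM in Mvp KO replicates 1 to 4. Again 1 WT sample was high and the rest overlapped, with log2 fold changes of -0.24 ± 0.22 (SE) and, without that sample, 0.053 ± 0.10, and a fold interval of 0.887 to 1.21. For Adora1, 20.1% of exon length overlaps Mybph on the opposite strand.

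Somatostatin, released by one class of interneurons, acts on 4 of the receptors counted here. Sstr2, their most abundant member, ranged from 25.3 to 35.8 CPM, Sstr3 from 28.5 to 47.2, Sstr1 from 12.5 to 19.2 and Sstr4 from 5.49 to 10.1, with log2 fold changes from -0.14 to 0.079 and from -0.065 to 0.039 without WT replicate 4. All 4 are Gi-coupled, and in none did WT replicate 4 lie 1.5-fold apart from the rest.

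The 3 neuropeptide Y receptor genes were all lowest in WT replicate 4. Npy1r, the postsynaptic Y1 receptor, was 42.6, 45.1, 36.8 and 13.8 CPM in WT replicates 1 to 4 and 35.4, 46.4, 35.7 and 39.97 CPM in Mvp KO replicates 1 to 4. Npy2r, the presynaptic Y2 receptor, was 10.8, 3.82, 5.53 and 2.51 CPM in WT replicates 1 to 4 and 5.84, 4.8, 7.1 and 9.83 CPM in Mvp KO replicates 1 to 4. For both the genotypes overlapped with and without that sample, with log2 fold changes of 0.19 ± 0.30 (SE) and 0.28 ± 0.41 (SE), and of -0.073 ± 0.11 and 0.042 ± 0.37 without it. Npy5r ranged from 5.56 to 9.90 CPM, with a log2 fold change of 0.083, or -0.024 without WT replicate 4. Summed over the 3 genes the level was 6.91 CPM per kilobase in WT replicate 4 and 14.5 to 18.7 elsewhere.

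Crhr1, the Gs-coupled receptor for corticotropin-releasing hormone, was 27.7, 33.3, 27.3 and 13.3 CPM in WT replicates 1 to 4 and 26.7, 27.7, 27.7 and 32.5 CPM in Mvp KO replicates 1 to 4. WT replicate 4 was the lowest, the other 7 samples overlapped, and the log2 fold change moved from 0.17 ± 0.23 (SE) to -0.037 ± 0.10 when that sample was left out. Oxtr, the Gq-coupled oxytocin receptor, ranged from 4.30 to 12.1 CPM with a log2 fold change of -0.19, or 0.093 without WT replicate 4. Galr1, the Gi-coupled galanin receptor, had 0 to 6 counts per library and 20 in all. The 0 counts in Mvp KO replicate 1 allow up to 3 counts, or 0.0748 CPM in that library.

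**Figure D5:**
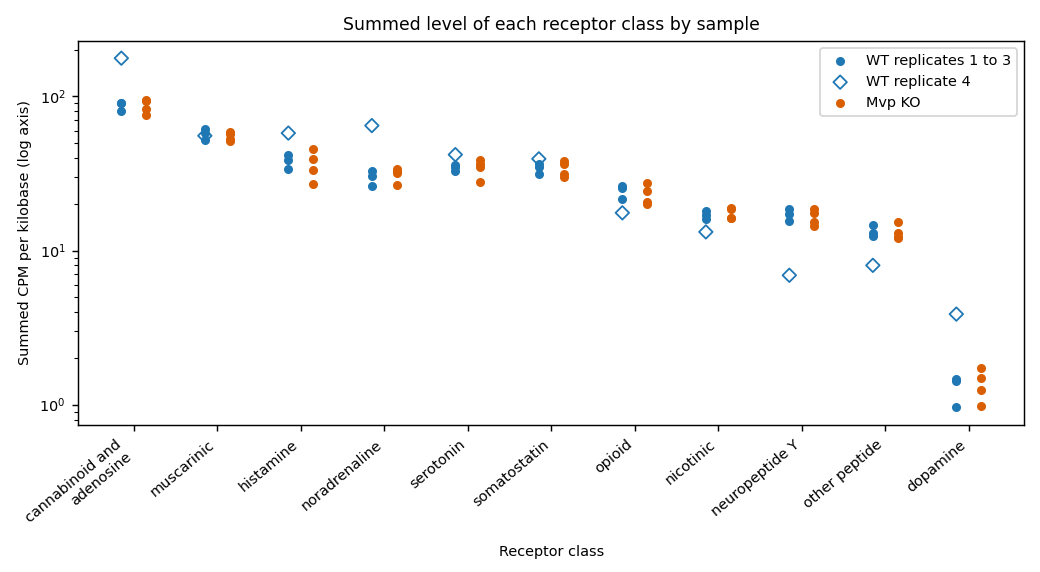
Summed level of each receptor class in each sample, in CPM per kilobase of exon on a log axis, with WT replicates 1 to 3 as filled blue circles, WT replicate 4 as an open diamond and Mvp KO as orange circles. Genotypes overlap in all 11 classes, and the diamond lies above the rest for cannabinoid and adenosine, histamine, noradrenaline, serotonin, somatostatin and dopamine receptors and below for opioid, nicotinic, neuropeptide Y and other peptide receptors.

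Further genes of these systems were read as lists. Of 51 other receptors for the same kinds of ligand, 30 were tested and 0 passed the adjusted threshold in edgeR, DESeq2 or limma. The highest per length were Adcyap1r1 (42.1 ± 10.8 CPM per kilobase), the PACAP receptor, Cckbr (33.2 ± 4.4), the cortical cholecystokinin receptor, Ntsr2 (30.9 ± 2.35), a neurotensin receptor, and Vipr1 (10.01 ± 4.06), a receptor for vasoactive intestinal peptide. At an unadjusted p under 0.05 there were 3, against 1.56% of all genes tested: Rxfp1, a relaxin receptor, with a log2 fold change of 0.36 ± 0.15 (SE), Mchr1, a melanin-concentrating hormone receptor, with -0.30 ± 0.13 (SE), and Htr1d with -1.03 ± 0.44 (SE). Without WT replicate 4 their log2 fold changes were 0.26, -0.17 and -0.79, and 0 of the 30 in edgeR had an unadjusted p under 0.05. DESeq2 and limma gave 3 and 1 with all samples, against 1.17% and 3.28% of all genes. In WT replicate 4 Adora2a, the adenosine receptor typical of striatal neurons, was 18.4 CPM against 1.8 to 2.64 CPM, Sstr5 was 10.03 CPM against 0.0691 to 0.501 CPM, and Chrna2 was 4.13 CPM against 0.354 to 0.736 CPM. Drd2, also a striatal marker, lay within the others at 1.52 CPM against 0.622 to 2.08 CPM. Drd1, another, was 24.4 CPM against 10.3 to 20.3 CPM.

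Of 48 signal transducers acting below the receptors, 47 were tested in edgeR, with 0 called and 0 at an unadjusted p under 0.05, and DESeq2 and limma gave 0 and 0 as well. Without WT replicate 4 edgeR also had 0 at an unadjusted p under 0.05. Their median log2 fold change was -0.010, or 0.0031 without that sample. Prkar1a, a regulatory subunit of protein kinase A (284 ± 31.8 CPM per kilobase), Rgs4, which shortens Gi and Gq signals (255 ± 142), and Gnb1, a G protein beta subunit (167 ± 1.62), were the highest. Rgs2, a brake on Gq signalling, was 422 CPM in WT replicate 4 against 61.7 to 75.3 CPM, and Rgs8 was 366 CPM against 109.5 to 159 CPM.

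Of 32 genes for peptide ligands and for transmitter synthesis, uptake and breakdown, 25 were tested and 0 were called in edgeR, DESeq2 or limma, with 3, 2 and 2 at an unadjusted p under 0.05, against 1.56%, 1.17% and 3.28% of all genes. The highest were Sst (289 ± 95 CPM per kilobase), Npy (142 ± 122) and Mgll (42.3 ± 6.25), which degrades the endocannabinoid 2-AG. The 3 of edgeR were all lower in Mvp KO: Sst, the peptide of one interneuron class, with a log2 fold change of -0.52 ± 0.20 (SE), Npy, with -1.04 ± 0.46 (SE), and Pnoc, the nociceptin precursor, with -0.41 ± 0.18 (SE). Sst was 166, 191, 167 and 309.8 CPM in WT replicates 1 to 4 and 151, 124, 159.9 and 149 CPM in Mvp KO replicates 1 to 4. The highest sample was WT replicate 4, and without it Sst alone of the 3 remained under 0.05, with a log2 fold change of -0.26 ± 0.094 (Npy -0.22, Pnoc -0.23), and it did not pass the adjusted threshold.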

How the data were processed

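The raw counts deposited by the authors are reads per Ensembl gene in 8 libraries (4 WT, 4 Mvp KO), made from 200 ng of total RNA each with a stranded poly-A kit and single-end sequencing. Per the submitters' processing notes and the study's methods, reads went through cutadapt 1.10, Bowtie2 2.2.8, STAR 2.5.3a on mm10 and HTSeq 0.6.1p1 with Ensembl release 91. The strand and overlap settings of the counting are not given in the sources used here. Exon lengths, symbols and strand overlaps came from GENCODE vM21 (GRCm38), which holds 53274 of the 53379 genes.

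Counts were tested in R 4.3.3 with edgeR 4.0.16 (filterByExpr with a minimum count of 10, TMM, robust quasi-likelihood fit, genotype alone) and Benjamini-Hochberg adjustment over 16914 genes, threshold 0.05. DESeq2 1.42.0, limma 3.58.1 and the other alternatives are given further on. All fits were also run on simulated counts in which no sample stood apart, so that run does not cover a sample such as WT replicate 4. The SE of a log2 fold change is its size over the root of the F statistic, and intervals are 95%. The intervals come from the edgeR fit and include the spread between samples. Total counts of 28456504 to 42854368 limit the precision of low genes, and the limit given for 0 counts covers counting error only.

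The receptors, the lists and the rule for naming genes were chosen with earlier results of these data known. Values in every sample were given for the 8 highest levels, the 6 smallest p, any unadjusted p under 0.05, any receptor whose genotypes did not overlap and any in which 1 sample lay 1.5-fold beyond all others.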

Additional observations from a re-analysis of the deposited data

Results flagged for a closer look

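In 84 groups of 4 samples (41 receptors and Mvp in both genotypes), 1 sample lay farther from the others than Dixon's 95% limit in 5, where chance alone gives about 1 in 20, or 4.2. Of these 3 were in WT replicate 4. Drd4 was at 10.4 CPM there against 0.346 to 0.576 in the other WT samples. Hrh2, the Gs-coupled histamine receptor, was at 34.3 CPM against 17.7 to 19.7. Adra2a, the alpha-2A noradrenaline receptor, was at 2.44 CPM against 5.46 to 6.07. Chrnb2, the nicotinic beta-2 subunit, was at 69.1 CPM in WT replicate 3 against 63.1 to 63.6 in the other WT samples. Mvp was at 2.13 CPM in Mvp KO replicate 3 against 1.44 to 1.51 in the other Mvp KO samples.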

How the results depend on the processing

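Over 30 results and 411 values under other settings, 362 were taken as unchanged. For a gene this meant the same sign and side of the threshold, and for a count a change of at most 1.5 times. As no receptor passed the threshold under any setting, a receptor counted as unchanged by its sign alone, whatever its size. Drd4, at -3.05 and at -0.41 without WT replicate 4, was so counted. For the median log2 fold change of the receptors it meant a shift under 0.119, the SD between samples, whatever its sign. That median lay near 0, ran from -0.0655 to 0.0709 and changed sign under several settings. Of the rest, 19 counts moved by more than 1.5 times, 7 values of Mvp lost the adjusted threshold and 23 log2 fold changes of receptors given with all their values changed sign. In edgeR, DESeq2 and limma, 0 receptors were called under every setting, including an adjusted p of 0.1. Over all genes 1 was called, against 2 by DESeq2's Wald test, 0 with the replicate block and 0 to 1 with each sample left out in turn. Receptors at an unadjusted p under 0.05 numbered 2 (all genes 1.56%), against 0 with limma voom (3.28%), 1 with no filter (1.81%), 1 with at least 10 counts in every sample (1.41%), 5 with the replicate block (Htr1f, Hrh1, Hrh2, Hrh3 and Oprd1, all genes 1.94%) and 0 to 4 with each sample left out (1.13% to 2.75%). Fold intervals within 1.5-fold numbered 13, against 31 with limma voom and 11 to 29 with each sample left out, the highest being without WT replicate 4. The log2 fold change of Mvp was -2.07 with the replicate block (adjusted p = 0.0850 in edgeR) and -2.22 to -1.99 with each sample left out. The labels do not say whether numbers shared between genotypes pair the samples. Deviations of same-numbered samples from their group means correlated at 0.055, 0.29, -0.0067 and 0.051. These values cannot decide it, because WT replicate 4 weighs on the deviations of every WT sample. The sign changes that follow cover only the receptors given with all their values. Others, such as Oxtr and Npy5r, also changed sign without WT replicate 4. Over the 8 fits that each drop 1 sample, log2 fold changes switched sign for Adora1 (-0.37 to 0.053), Adra1d (-0.59 to 0.073), Adra1b (-0.60 to 0.072), Adrb1 (-0.36 to 0.088), Oprl1 (-0.081 to 0.22), Crhr1 (-0.037 to 0.33), Npy1r (-0.073 to 0.35), Htr1b (-0.0049 to 0.46), Adra2a (-0.0065 to 0.32), Chrm1 (-0.063 to 0.12) and Htr7 (-0.066 to 0.60). The sign changed without WT replicate 4 in all 11, also without Mvp KO replicate 3 or 4 for Chrm1 and also without Mvp KO replicate 2 for Htr7. With limma voom the sign changed for Adora1 (0.014), Hrh3 (0.0044), Adra1d (0.086), Htr2a (0.022), Npy1r (-0.026), Adra1b (0.043), Adrb1 (0.024), Htr7 (-0.14) and Adra2a (-0.031). Drd4, at -3.05, was -0.60 with limma voom and -0.41 without WT replicate 4, and DESeq2 gave it no p. None of these passed the adjusted threshold under any setting, and the cause was not tested. Depth limits Oprm1, Galr1 and Drd4, with 3 to 8, 0 to 6 and, outside WT replicate 4, 9 to 25 counts per library.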
